A study of Mus musculus with 9 samples.

Results

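BAP1 ChIP-Seq peaks that lie inside gene bodies, away from transcription start sites (TSSs), made up 1211 of the 13164 peaks deposited for Ba/F3 cells (9.20%, 95% Wilson interval 8.72 to 9.71). A peak was counted when its middle, 100 bp after its start, lay more than 1 kb from the TSS of every transcript of the GENCODE M1 annotation and between the start and end of at least 1 annotated gene of any type and on either strand. The rule used position alone, and neither the DNA sequence of the peaks nor their spacing.

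Ba/F3 cells are an IL-3-dependent mouse line of the pro-B stage. The peak list combines an immunoprecipitation with an antibody to BAP1 in wild type cells and one with an antibody to FLAG in cells that stably express murine BAP1 with a triple FLAG tag, with input DNA of each as control. Each of the 2 immunoprecipitations was sequenced once, and the list gives 1 set of 200 bp intervals for both, without heights, scores or a record of which sample gave a peak. None of the values below therefore has a replicate error, the depth is unknown, and the intervals and tests cover counting error over the listed peaks only. The identity of the cells could not be checked against marker genes in these data, and the H2AK119ub and *Bap1* knockout samples were not analysed here.

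BAP1 is a deubiquitinase that removes ubiquitin from histone H2A, a mark that Polycomb repressive complex 1 deposits. It works in a complex with ASXL proteins and is recruited through partners that include the FOXK forkhead factors and the host cell factor HCF1, together with the glycosyltransferase OGT. Most of its known binding is at CpG-rich promoters, whereas introns hold enhancers, insulators, alternative promoters and repeated DNA.

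The sequences of members in genes of hematopoietic progenitors and the IL-3 pathway show how varied these peaks are. All are from the plus strand of mm9, 5′ to 3′, with matches to the searched motifs in capitals. The *Runx1* and *Erg* genes encode transcription factors of blood progenitors, and both of these peaks lie in introns. In *Runx1* the capitals are, in order, TTGCNNAA (the C/EBP letters), GGGCGG (SP/KLF) and the letters of the GATA factors (AGATAA), and in *Erg* TTCNNNGAA (STAT) and a pair of adjacent TGANTCA matches (AP-1). *Tal1*, a basic helix-loop-helix factor of the same cells, has its peak in a coding exon with repeated GGGCGG.
Runx1, chr16:92715810-92716009: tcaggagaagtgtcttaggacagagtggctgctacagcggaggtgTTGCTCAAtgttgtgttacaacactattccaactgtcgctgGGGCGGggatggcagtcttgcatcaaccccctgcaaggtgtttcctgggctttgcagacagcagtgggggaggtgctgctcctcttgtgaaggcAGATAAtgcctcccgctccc
Erg, chr16:95658309-95658508: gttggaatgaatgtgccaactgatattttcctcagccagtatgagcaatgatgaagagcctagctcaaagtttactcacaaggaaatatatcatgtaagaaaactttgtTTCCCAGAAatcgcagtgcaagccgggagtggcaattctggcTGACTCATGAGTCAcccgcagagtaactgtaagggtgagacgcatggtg
Tal1, chr4:114735789-114735988: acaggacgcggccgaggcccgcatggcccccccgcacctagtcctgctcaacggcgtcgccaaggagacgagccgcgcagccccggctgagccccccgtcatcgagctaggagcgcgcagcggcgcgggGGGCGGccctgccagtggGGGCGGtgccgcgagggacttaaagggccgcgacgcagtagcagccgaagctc

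In the IL-3 pathway, *Osm* encodes the cytokine oncostatin M, *Gab2* an adaptor of cytokine receptors and *Socs1* a suppressor of JAK kinases. The capitals in the intronic *Osm* peak are TGTGGTT (RUNX), a pair of overlapping CCCNNGGG matches (EBF), CCGGAAG (ETS, on the other strand) and CACGTG (E-box), and those in the intronic *Gab2* peak are C/EBP letters on the other strand and STAT letters. The *Socs1* peak lies in a coding exon and held no searched motif.
Osm, chr11:4137547-4137746: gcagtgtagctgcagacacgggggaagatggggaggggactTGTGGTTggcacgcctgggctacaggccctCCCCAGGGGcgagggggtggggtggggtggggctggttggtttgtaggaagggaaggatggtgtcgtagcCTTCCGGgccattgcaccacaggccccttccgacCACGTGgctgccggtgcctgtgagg
Gab2, chr7:104358593-104358792: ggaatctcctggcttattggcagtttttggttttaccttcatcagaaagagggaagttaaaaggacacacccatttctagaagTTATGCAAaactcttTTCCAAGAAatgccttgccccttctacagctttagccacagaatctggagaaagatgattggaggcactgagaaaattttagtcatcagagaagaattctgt
Socs1, chr16:10784378-10784577: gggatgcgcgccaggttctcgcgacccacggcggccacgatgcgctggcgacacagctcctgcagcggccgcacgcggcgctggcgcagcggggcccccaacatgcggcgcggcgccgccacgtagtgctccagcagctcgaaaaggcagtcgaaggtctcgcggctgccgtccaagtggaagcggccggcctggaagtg

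Gene bodies were sparsely occupied. The genome outside the TSS windows and inside genes covers 976 Mb, or 38.2% of the sequenced bases, and held 1.24 peaks per Mb (95% Poisson interval 1.17 to 1.31). Intergenic DNA 1 to 50 kb from a TSS held 1.90 peaks per Mb (1.80 to 2.00), intergenic DNA beyond 50 kb held 0.620 (0.563 to 0.680), and the TSS windows held 94.9 (93.0 to 96.7). The members lay a median of 7632 bp from the nearest TSS, with quartiles of 2752 and 20215 bp, and the farthest was 506183 bp away. In the range of 1 to 2 kb there were 225 members, and beyond 50 kb there were 117. The nearest members above the limit lay at 1002 bp (*Fstl1*), 1004 bp (*Gm12216*) and 1008 bp (*C030014I23Rik*). The nearest peaks inside genes that the limit left out lay at 999 bp (*Stk35*), 997 bp (*Amac1*) and 997 bp (*9330133O14Rik*, inside *Gm20388*), so the limit cuts through a continuous range.

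**Figure D1:**
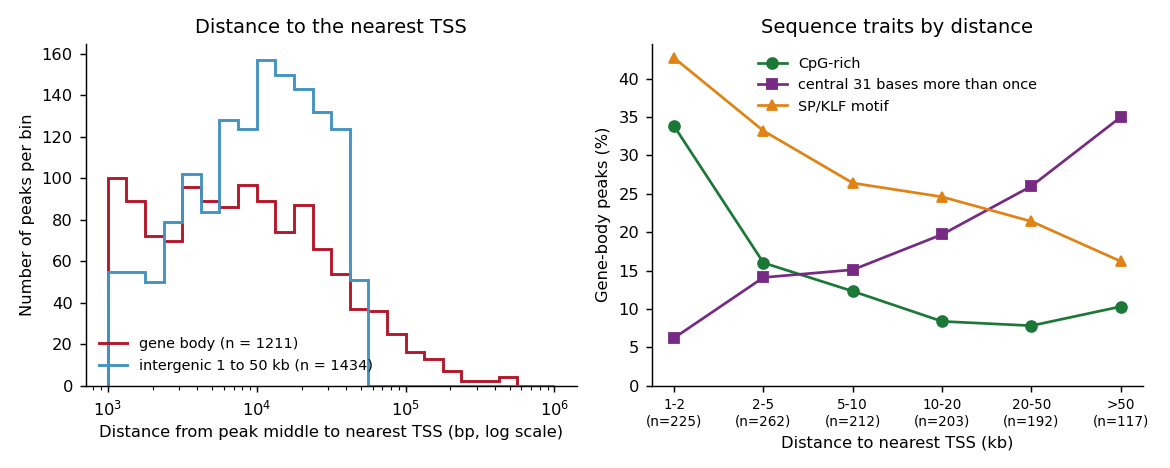
Left, number of peaks per bin of distance from the peak middle to the nearest TSS (bp, log scale, equal log steps) for the 1211 gene-body peaks and the 1434 intergenic peaks 1 to 50 kb from a TSS. Right, share of gene-body peaks (%) in each range of distance (kb, n below each range) that are CpG-rich, whose central 31 bases occur more than once in the genome, or that hold the SP/KLF motif. The CpG-rich share falls from 33.8% at 1 to 2 kb to 10.3% beyond 50 kb, while the repeated share rises from 6.22% to 35.0%.

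Within genes, 1091 members (90.1%, 95% Wilson interval 88.3 to 91.6) had their middle in an intron of every transcript they crossed, beside 93.7% of the eligible bases. A first intron of at least 1 transcript held 574 (47.4%, 44.6 to 50.2), beside 35.5% of the bases, and these introns carried 1.66 members per Mb. Exons held the other 120 members, at 1.94 per Mb. They comprised 55 in coding exons (4.54%, beside 2.69% of the bases), 39 in 3′ UTRs, 20 in exons of non-coding transcripts and 6 in 5′ UTRs. Within 1 kb of a transcript end there were 114 members (9.41%, 7.89 to 11.2), beside 6.58% of the bases. Among 1096 members with 1 protein-coding host, 432 (39.4%) lay in the first of 3 equal parts of the gene, 357 (32.6%) in the middle part and 307 (28.0%) in the last. The eligible bases of each part, which the 1 kb limit reduces near every TSS, were not counted, so no preference for a part is concluded. The feature also went with base composition. CpG-rich sequence was present at 27 of 55 members in coding exons and 6 of 6 in 5′ UTRs, but at 141 of 1091 in introns (12.9%).

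**Figure D2:**
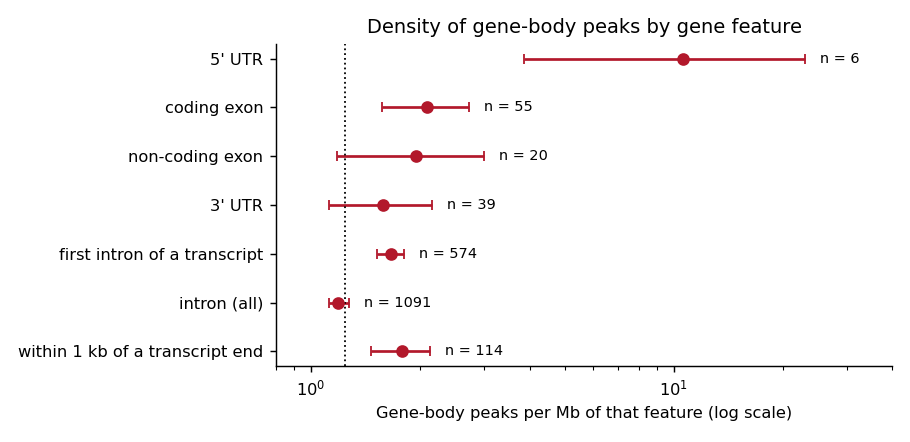
Gene-body peaks per Mb of each gene feature (log scale), with 95% Poisson intervals and the number of peaks. The dotted line marks the density over all eligible gene-body DNA, 1.24 per Mb. The density in 5′ UTRs, 10.6 per Mb, rests on 6 peaks, of which 3 held bases of a RefSeq promoter.

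The members fell in 1057 genes, which is 2.84% of the 37273 annotated ones. Of these, 958 were protein-coding, 4.28% of all protein-coding genes, and 47 were lincRNA genes, 43 processed transcripts, 8 pseudogenes and 1 an immunoglobulin constant gene. Most hosts held a single member (916 genes), 112 held 2 and 29 held 3 or more. At least 1 protein-coding gene hosted 1123 members (92.7%), and 36 lay in genes on both strands, for which the host is ambiguous. Host genes were long. The median length of the protein-coding hosts was 56.9 kb against 15.4 kb over all protein-coding genes, and the share that hosted a member rose from 1.53% of genes up to 20 kb to 13.5% of genes over 100 kb.

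Many hosts also had BAP1 at their start. A peak lay within 1 kb of an own TSS in 455 of the 958 protein-coding hosts (47.5%, 95% Wilson interval 44.3 to 50.7), beside 39.6% of all protein-coding genes. The contrast varied with gene length. For genes up to 20 kb the share was 42.8% in hosts (36.0 to 49.8) and 32.5% in other genes (31.7 to 33.3), and for genes over 100 kb it was 44.1% (38.8 to 49.6) and 33.5% (31.5 to 35.6). For genes of 20 to 50 kb it was 50.8% in hosts (44.6 to 57.0) and 54.1% in others (52.7 to 55.6), and for those of 50 to 100 kb it was 53.6% (46.6 to 60.4) and 50.9% (48.9 to 53.0). The intervals of hosts and other genes were apart in the shortest and longest range, and overlapped in both ranges between.

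The hosts with the most members were a mixed group. *Gm20388*, a gene model of 4435 kb on chromosome 8 (122434741 to 126869622), held 36, of which 27 had no other host. *Baz2a*, which encodes a subunit of the nucleolar remodeling complex, held 4 at 1107 to 5170 bp from a TSS, 3 of them CpG-rich, and had a peak at its own TSS. The *Baz2a* member at 1107 bp also held bases of a RefSeq promoter of *Baz2a*, by the sequence match described below. *Unc13a*, a gene of synaptic vesicle priming, also held 4, with 1 in the 3′ UTR. *Nova2*, a neuronal splicing factor, held 4 over 7.78 kb, of which 3 were in coding exons, and it had no peak at its own TSS. A pair of those coding-exon peaks, at 19543440 to 19543639 and 19543544 to 19543743 on chromosome 7, overlap and share sequence. The remaining hosts of the first 10 were *Gm16090* (6 members), *Gm11755* (5), *Arfip1* (4), *Gm17627* (4), *Adam5* (4) and *2010111I01Rik* (3). In *Gm16090*, *Adam5* and *2010111I01Rik* the central 31 bases occurred more than once in the genome for 4 of 6, 3 of 4 and 2 of 3 members.

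Most genes of the BAP1 and Polycomb machinery had a peak at their start, and a few held members. Over all protein-coding genes, 39.6% had a peak at an own TSS and 4.28% were hosts. Of 13 genes for BAP1 and its partners, 12 (92.3%) had a peak at an own TSS and 1 (7.69%), *Foxk1*, held members. *Foxk1* encodes a forkhead factor of the BAP1 complex, and its 3 peaks lie in introns 12083, 23323 and 23472 bp from the nearest TSS, with the last overlapping its neighbor. The forkhead letters TGTTTAC occur in the peak at 23323 bp. Of 27 Polycomb genes, 24 (88.9%) had a TSS peak and 3 (11.1%) held members, *Cbx7* (a chromodomain subunit, 4701 bp), *Phc2* (a subunit that polymerizes, 12463 bp) and *Phf19* (an accessory factor of PRC2, 2037 bp). *Cbx7* alone of the latter had no peak at its own TSS. The shares of hosts rest on 1 and 3 genes, in lists with median gene lengths of 44.3 and 31.4 kb against 15.4 kb over all protein-coding genes.

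Host shares in the blood lineage and cytokine lists ran from 4.55% to 22.7%, beside 4.28% of all protein-coding genes, and each rests on 1 to 5 genes. Median gene lengths were 81.5 kb (B lineage), 41.7 kb (progenitor), 24.5 kb (IL-3 and STAT5) and 19.9 kb (pre-B receptor), against 15.4 kb over all protein-coding genes. Hosts made up 5.00% of genes of 20 to 50 kb and 8.03% of those of 50 to 100 kb, and the list shares were not adjusted for length. Among 22 progenitor factors 5 (22.7%) held 1 member each, *Runx1* (18336 bp from a TSS), *Erg* (22502 bp), *Tal1* (3775 bp), *Hhex* (1810 bp, in a 5′ UTR) and *Zfpm1* (22150 bp), and 12 of the 22 (54.5%, beside 39.6% of all protein-coding genes) had a TSS peak. Among 22 B lineage factors 7 (31.8%) had a TSS peak and 1 (4.55%) was a host. This was *Lef1*, a factor of early lymphocytes, with an intronic member 18049 bp from a TSS that held no searched motif and whose central 31 bases occur 28 times in the genome. Of 22 genes of the pre-B receptor and recombination 3 (13.6%) were hosts and 2 (9.09%) had a TSS peak. *Plcg2*, the phospholipase downstream of the receptor, held 2 overlapping members 50273 and 50382 bp from a TSS. *Syk*, the receptor-proximal kinase, held 1 at 2961 bp and *Pik3cd*, a catalytic subunit of PI3-kinase, 1 at 5065 bp with the STAT letters. In the IL-3 and STAT5 list 19 of 22 genes (86.4%) had a TSS peak and 3 (13.6%) were hosts, at 1152 bp in *Socs1*, 1223 bp in *Osm* and 67133 bp in *Gab2*, and each of these hosts also had a TSS peak.

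The same shares over all protein-coding genes, 39.6% with a TSS peak and 4.28% hosts, stand beside the other lists. Of 30 cell cycle genes 26 (86.7%) had a TSS peak and 3 (10.0%) held members. *Ccnd3*, the D-type cyclin of lymphoid progenitors, held 3 intronic members at 3074, 6885 and 16770 bp, the CDK inhibitor gene *Cdkn1a* 1 at 1808 bp and *E2f2* 1 at 2608 bp. The nearest *Ccnd3* peak held GAGGAAGT (PU.1), RUNX, IRF and SP/KLF letters. Among 20 myeloid and mast cell genes 0 held a member, and 1 (5.00%) had a TSS peak. Of 16 T cell genes 3 (18.8%) had a TSS peak and 2 (12.5%) held members, *Cd3d* (in a 3′ UTR, 4909 bp) and the costimulatory receptor gene *Cd28* (3412 bp), where the central 31 bases occur 62 times. The list of 20 synaptic and neuronal adhesion genes, whose median length is 1173 kb, had 4 hosts (20.0%) and 0 genes with a TSS peak. In *Cntn5*, *Dlg2* and *Lrp1b* the central 31 bases of the member occur 69, 304 and 988 times. The lists differ in gene length, and the counts were not adjusted for it.

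Members were richer in G and C than the DNA around them, and mostly poor in CpG. In the 100 bp around the middle of the 997 members whose central 31 bases occur once, GC content was 56.7% and the CpG ratio, observed over expected, was 0.428, against 47.9% and 0.274 at 2 kb upstream on the plus strand. By a window of 500 bp with GC of at least 50% and a CpG ratio of at least 0.6, 188 members (15.5%, 95% Wilson interval 13.6 to 17.7) were CpG-rich. The share was 23.5% in the intergenic peaks 1 to 50 kb from a TSS (odds ratio 0.598, 95% interval 0.491 to 0.729, Fisher's exact test, two-sided, adjusted p = 5.32e-07 over 2 comparisons). It was 86.9% in the gene-proximal peaks. The odds ratio was 0.382 (Fisher's exact test, adjusted p = 1.07e-11) among peaks more than 5 kb from every TSS, where 9.67% of gene-body and 21.9% of intergenic peaks were CpG-rich.

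**Figure D3:**
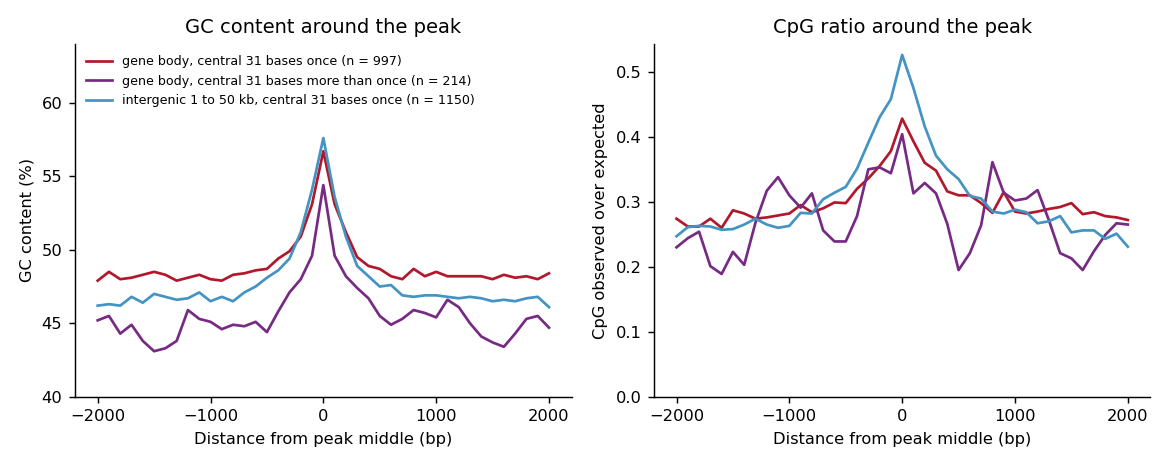
GC content (%) and CpG ratio (observed over expected) in 100 bp steps within 2 kb of the peak middle, for gene-body peaks whose central 31 bases occur once (n = 997) or more than once (n = 214) and for intergenic peaks 1 to 50 kb from a TSS whose central bases occur once (n = 1150). GC content peaks at the middle in each group, at 56.7%, 54.4% and 57.6%, and the CpG ratio there is 0.428, 0.404 and 0.526.

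At least 1 of the 20 searched motifs was present in 851 members (70.3%). Matches were counted on both strands in the 200 bp of the peak, matches of different motifs can overlap, and a match is a stretch of letters, not a bound site. Flanking windows of the same length, 400 bp beyond either edge, serve as a description of the surrounding DNA. The SP/KLF letters GGGCGG were the most common, in 349 members (28.8%, 26.3 to 31.4) and 6.61% of flanking windows, and 67.0% of the matches lay within 50 bp of the middle. They occur in 59.5% of all 13164 peaks. They were in 141 of the 188 CpG-rich members and in 20.3% of the others. The ETS letters CCGGAAG were in 4.87% of members and 1.07% of flanks (16.8% of all peaks), and the NF-Y letters AGCCAAT in 4.21% and 1.82% (8.28% of all peaks). Of the ETS and NF-Y matches, 60.6% and 66.7% lay within 50 bp of the middle, beside 57.7% for RUNX and 44.9% for GATA.

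The letters of AP-1, CTCF, PU.1 and the forkhead factors were also more frequent in the members than in their flanks, and those of several other lineage factors were not. The AP-1 letters TGANTCA, bound by FOS and JUN, were in 122 members (10.1%, 8.50 to 11.9) and 4.71% of flanks. They occur in 3.81% of all peaks and 2.40% of gene-proximal ones. Of the 122, 118 were outside CpG-rich windows. The CTCF letters CNAGNGGGC were in 5.78% and 2.06% (9.46% of all peaks), the PU.1 letters GAGGAAGT in 3.80% and 1.36% (2.61%), and the forkhead letters TGTTTAC in 4.38% and 2.68% (2.49%). Rare motifs showed wide ratios from few matches, with the CREB letters TGACGTCA in 14 members and 3 of 2422 flanks (2.80% of all peaks), and the NRF1 letters CGCATGCG in 9 members and 1 flank (3.50%). The GATA letters AGATAA went the other way, with 5.45% of members and 10.4% of flanks (2.80% of all peaks). The flanks are less rich in G and C, and the part of base composition in these ratios was not tested. Shares close to the flanks were found for the RUNX letters (4.29% and 4.95%), STAT (5.45% and 5.20%), CAGCTG (11.1% and 11.0%) and C/EBP (6.11% and 6.52%). In members whose central 31 bases occur once, AP-1 was at 11.6% beside 5.12% in their flanks, SP/KLF at 29.8% beside 7.67% and CTCF at 6.82% beside 2.36%.

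Against intergenic peaks 1 to 50 kb from a TSS, 1 of 20 motifs differed (5.00%). The SP/KLF share was lower in the members, 28.8% against 34.4% (odds ratio 0.773, 95% interval 0.655 to 0.912, Fisher's exact test, adjusted p = 0.0447 over 20 motifs). In peaks that are not CpG-rich it was 20.3% against 23.3% and did not pass (Fisher's exact test, adjusted p = 0.295). NF-Y (odds ratio 0.613, 0.432 to 0.868, Fisher's exact test, adjusted p = 0.0626) and ETS (0.655, 0.471 to 0.910, Fisher's exact test, adjusted p = 0.0787) were lower without passing the threshold, and passed it, lower, under 6 and 5 of the 9 alternative settings. For AP-1 the odds ratio was 1.28 (0.984 to 1.68), for forkhead letters 1.17 (0.794 to 1.72) and for CTCF 1.02 (0.737 to 1.42), with adjusted p of 0.252, 0.615 and 0.982 in Fisher's exact test. The PU.1 letters, though above their flanks, were in 3.80% of members against 5.58% of these intergenic peaks (odds ratio 0.668, 0.461 to 0.968, Fisher's exact test, adjusted p = 0.140).

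**Figure D4:**
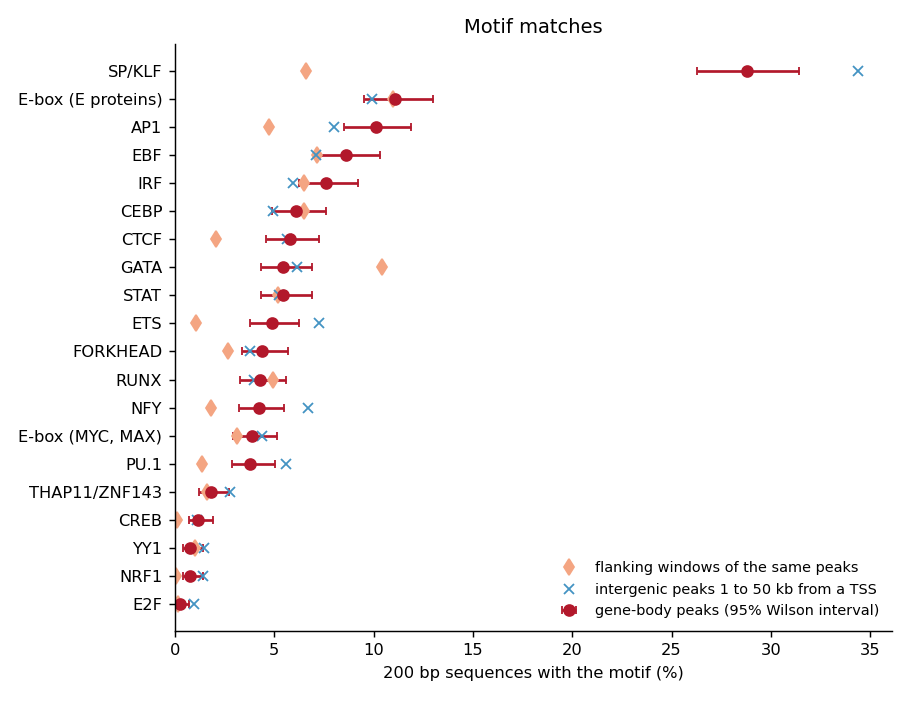
Share of 200 bp sequences (%) that hold each of 20 motifs, for the 1211 gene-body peaks (circles, 95% Wilson interval), the windows 400 bp beyond their edges (diamonds) and intergenic peaks 1 to 50 kb from a TSS (crosses). SP/KLF (28.8% in gene-body peaks, 6.61% in flanks) and AP-1 (10.1% and 4.71%) stand to the right of their flanks, and GATA (5.45% and 10.4%) to the left.

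A part of the members carried repeated DNA. The central 31 bases occurred more than once in the genome for 214 members (17.7%, 15.6 to 19.9) and 100 times or more for 99 (8.18%), up to 58416 times, beside 11.4% of flanking positions with more than 1 copy. Without a match for distance, the share did not differ detectably from the 19.8% of intergenic peaks 1 to 50 kb from a TSS (odds ratio 0.869, 0.714 to 1.06, Fisher's exact test, adjusted p = 0.231 over 10 comparisons chosen after seeing the data). The members include 117 beyond 50 kb, of which 41 (35.0%) had repeated central bases, while that class ends at 50 kb. A comparison within the same range of distance was not made, so a difference there is left undecided. For all members, the share with repeated central bases was 17.7%. It was lower than the 49.1% of intergenic peaks beyond 50 kb (odds ratio 0.222, 0.176 to 0.282, Fisher's exact test, adjusted p = 1.16e-34), and it was 2.41% in gene-proximal peaks. The repeated share of members rose with distance, and only 117 lay beyond 50 kb. The contrast with the farther class therefore does not separate gene bodies from distance. Simple repeats, with units of 1 to 6 bp over at least 20 bp, were in 223 members (18.4%) and 6.32% of flanking windows. They were in 15.5% of intergenic peaks 1 to 50 kb from a TSS (odds ratio 1.23, 1.00 to 1.51, Fisher's exact test, adjusted p = 0.0791). Beyond 50 kb they were in 32.7% of intergenic peaks (odds ratio 0.464, 0.363 to 0.593, Fisher's exact test, adjusted p = 4.02e-09). That odds ratio also sets members of all distances against the farther class. Of the 117 members beyond 50 kb, 24 held a simple repeat, and a contrast at like distance was not tested. How reads that map to several places were treated is not given in the sources used here, and its part in these peaks was not tested.

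A part of the repeats fell into 3 kinds, and 1 member of each of the sequence families is shown here with its repeated letters in capitals. The unit AAAGG, counted in any rotation and on either strand, formed a simple repeat in 141 members (11.6%) and 4 of 2422 flanking windows, and 138 of the 141 were in introns. For 116 of the 141 the central 31 bases occur once. Sequence family 1, chained over all listed peaks that shared at least 40 stretches of 20 bases, had 265 peaks. Of these, 61 were members (5.04% of all members), from 18 chromosomes. Another 92 were intergenic peaks 1 to 50 kb from a TSS (6.42% of that class) and 106 lay beyond 50 kb (23.8%). The letters CTCCCTTGT were in 57 of the 61 members, up to 8 times a peak. None of the 61 was CpG-rich, and the median copy number of their central bases was 409. Sequence family 2, made in the same way, had 118 peaks, of which 39 were members (3.22%). It also held 35 intergenic peaks 1 to 50 kb from a TSS (2.44%) and 43 beyond 50 kb (9.64%). All 39 members carried CTGCGCA and GGGCGG, and 36 were CpG-rich, or 19.1% of the 188 CpG-rich members. The CpG-rich member farthest from any TSS, in *Cntnap5a* at 204291 bp, belonged to family 2 with 827 copies, and its capitals mark GGGCGG. No repeat annotation was used here, and the families were not named.
Family 1, Fstl5, chr3:76361278-76361477: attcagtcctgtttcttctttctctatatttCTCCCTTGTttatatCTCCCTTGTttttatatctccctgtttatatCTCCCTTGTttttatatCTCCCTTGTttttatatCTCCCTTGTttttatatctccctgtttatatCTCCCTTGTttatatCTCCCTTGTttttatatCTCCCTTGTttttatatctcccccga
Family 2, Ttc27, chr17:75164315-75164514: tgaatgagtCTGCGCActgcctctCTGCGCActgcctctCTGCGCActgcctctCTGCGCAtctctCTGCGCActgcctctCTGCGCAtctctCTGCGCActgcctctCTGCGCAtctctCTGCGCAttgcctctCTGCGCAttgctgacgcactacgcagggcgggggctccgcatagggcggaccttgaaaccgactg
Cntnap5a, chr1:117785906-117786105: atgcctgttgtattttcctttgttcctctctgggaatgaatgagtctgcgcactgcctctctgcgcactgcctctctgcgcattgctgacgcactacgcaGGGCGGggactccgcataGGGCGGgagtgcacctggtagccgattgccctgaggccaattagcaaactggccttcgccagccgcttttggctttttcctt

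**Figure D5:**
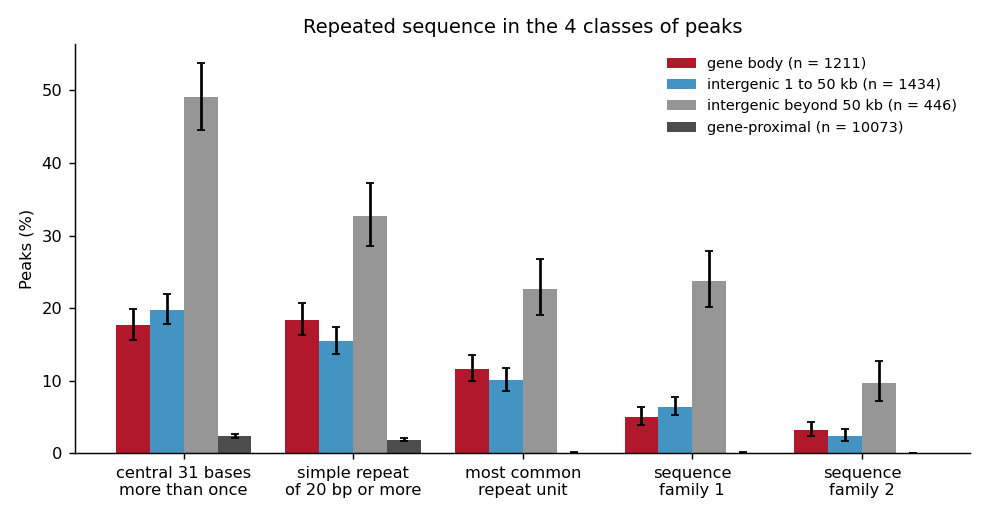
Share of peaks (%) with 5 kinds of repeated sequence in the 4 classes of peaks, with 95% Wilson intervals. Gene-body peaks (17.7% with central bases more than once, 11.6% with the most common repeat unit, AAAGG) lie near the intergenic peaks 1 to 50 kb from a TSS (19.8% and 10.1%), below those beyond 50 kb (49.1% and 22.6%) and above the gene-proximal peaks (2.41% and 0.0993%). The classes are not matched for distance, and 117 gene-body peaks lie beyond 50 kb.

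These 3 kinds together accounted for 241 members (19.9%). Among the 970 others 90 (9.28%) still had more than 1 copy and 152 (15.7%) were CpG-rich. Repeats and CpG-rich sequence lay at opposite ends of the distance range. From 1 to 2 kb from a TSS, 14 of 225 members (6.22%) had repeated central bases and 76 (33.8%) were CpG-rich. Beyond 50 kb the counts were 41 of 117 (35.0%) and 12 (10.3%), and family 2 had 6 members in that range. The ETS letters were in 9.33% of members at 1 to 2 kb and 2.56% beyond 50 kb. The AP-1 letters showed no steady course, with 12.0%, 7.63%, 10.8%, 13.3%, 8.85% and 6.84% in the 6 ranges from nearest to farthest.

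Another peak lay within 5 kb of 342 members (28.2%, 25.8 to 30.8) and of 43.2% of the gene-proximal peaks. The members' share compares with 28.0% of intergenic peaks 1 to 50 kb from a TSS (odds ratio 1.01, 95% interval 0.855 to 1.20, Fisher's exact test, adjusted p = 0.896). It also compares with 9.42% of those beyond 50 kb (odds ratio 3.79, 2.69 to 5.33, Fisher's exact test, adjusted p = 4.90e-17). Peaks beyond 50 kb lie too far from any TSS to have a gene-proximal peak within 5 kb. The second contrast is therefore set in part by the class rule, and nothing is concluded from it. The first of these contrasts depended on the distance, since within 1 kb the shares were 9.58% and 12.4% (Fisher's exact test, adjusted p = 0.0216) and within 20 kb 48.0% and 52.3% (Fisher's exact test, adjusted p = 0.0288), lower in the members both times. Another member lay within 5 kb of 177 of them, and 44 members overlapped another listed peak, so that their sequences are in part shared.

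Some members lay at starts that the annotation used for the rule does not hold. The bases of 31 members (2.56%) included at least 50 bases of a RefSeq promoter window (250 bases before to 50 after a gene's start, GRCm38.p6) on the same chromosome, in a stretch that occurs once in the genome, and for 14 of these the RefSeq gene and the host had the same symbol. The share was 6.28% in intergenic peaks 1 to 50 kb from a TSS (odds ratio 0.392, 0.259 to 0.594, Fisher's exact test, adjusted p = 7.43e-06). The 31 include the starts of *Hnrnpf*, 9480 bp from the nearest annotated TSS, of *Tnrc6b* at 38976 bp, of *Hhex* at 1810 bp and of *Kcnq1ot1*. *Kcnq1ot1* is the imprinted non-coding RNA transcribed from within *Kcnq1*, and its peak, 147924 bp from the nearest annotated TSS, is shown because it marks a known start inside another gene. It held none of the searched motifs. These genes were chosen after their values were seen.
Kcnq1ot1, chr7:150482488-150482687: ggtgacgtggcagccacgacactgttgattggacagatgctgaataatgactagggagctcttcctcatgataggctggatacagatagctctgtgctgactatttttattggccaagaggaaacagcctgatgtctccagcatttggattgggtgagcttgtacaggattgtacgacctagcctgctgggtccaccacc

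The order of the deposited list followed the distance to the nearest TSS (Spearman's rho 0.852 over 13164 peaks, a description), so a place in it is no measure of strength. Among the first 9000 places, where 98.8% of peaks lay within 1 kb of a TSS and the median distance was 48.0 bp, there were 20 members. Of these, 14 were at RefSeq promoters and 12 were CpG-rich, beside 17 at RefSeq promoters among the other 1191.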

How the data were processed

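The authors immunoprecipitated BAP1 and FLAG-tagged BAP1 from Ba/F3 cells, mapped reads with Bowtie 1.0.0 to mm9 and called peaks with MACS 1.4.2 against input DNA, per the labels and the submitters' processing notes. They deposited 1 list of peak start and end positions in bp for both samples. The caller's threshold, the rule that combined the samples and the handling of reads with several places are not given in the sources used here. Both position columns were used, and the number of per-sample columns left unmatched was 0. The list has no scores, so depth is unknown.

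From there, peaks were placed on GENCODE M1 (mm9). Sequences came from the same build, and RefSeq promoter windows (GRCm38.p6) were matched by sequence, with no coordinates converted. Gene symbols absent from GENCODE M1 were matched through RefSeq synonyms. A CpG-rich window is 500 bp with GC of at least 50% and a CpG ratio of at least 0.6. Copies are exact matches of the central 31 bases on either strand. Families join peaks over 5 kb apart that share at least 40 stretches of 20 bases. Shares carry 95% Wilson intervals, densities exact Poisson intervals and odds ratios log odds intervals. Two-sided Fisher's exact tests compare counts of peaks, which are not replicates, with Benjamini-Hochberg adjustment and a threshold of 0.05. No upper limit of distance applies to the members, while the nearer intergenic class ends at 50 kb. Calculations used scipy 1.17.1, pandas 2.3.3, numpy 2.4.6 and statsmodels 0.14.6 in Python 3.11.15, and matplotlib 3.10.9 drew the plots. The scripts were tested on simulated data.

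The named genes are the 10 hosts with the most members (ties by symbol), every host in the gene lists (up to 6 a list with values), the 3 members nearest above the limit and the 3 peaks inside genes nearest below it. Sequences are those of up to 3 members of the B lineage, progenitor and IL-3 lists with the most motifs and of the CpG-rich member farthest from a TSS. UTR sequences were not printed, and a few items that these rules would name are not reported here. The repeat examples and RefSeq promoters were chosen after seeing the data. The members, lists and motifs were chosen with earlier results of these data known. Alternatives changed the 1 kb limit, the annotation, merging, the reference point, the CpG and motif windows and the set of peaks.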

Additional observations from a re-analysis of the deposited data

How the results depend on the processing

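No paired analysis was possible because the data are 1 combined list without replicates. With limits of 500 bp and 2 kb the number of members was 1475 and 986. It was 1172 with protein-coding genes only, 1167 after merging, 1185 by the nearest edge, 997 with members of single-copy central bases and 1184 without those hosted by *Gm20388* alone, all within 1.5 times the count of 1211. The intron share moved to 88.2% and 92.2% at limits of 500 bp and 2 kb, and the share of protein-coding hosts with a peak at an own TSS to 55.7% and 43.7%. At 500 bp a peak can be both a member and within 1 kb of its host's own TSS. The lower CpG-rich share kept its direction and passed the threshold under all 9 alternatives, with odds ratios from 0.382 to 0.817.

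The comparison of neighbors within 5 kb had an odds ratio of 1.01. By Fisher's exact test it passed the threshold at 1.20 with the 500 bp limit (adjusted p = 0.0180). In the opposite direction it passed at 0.758 with the 2 kb limit (0.00670), 0.748 within 1 kb (0.0216) and 0.841 within 20 kb (0.0288). Without passing, it was 1.20 after merging (0.0575) and turned to 0.875 with protein-coding genes, 0.990 by the nearest edge and 0.927 with single-copy peaks. The odds ratio of repeated central bases turned from 0.869 to 1.01 beyond 5 kb, where the members again had no upper limit of distance. The count of motifs that differed, 1 of 20, became 2 with 500 bp and with the nearest edge, 4 with 2 kb, protein-coding genes and the central 100 bp, 5 beyond 5 kb, and 0 after merging and in peaks that are not CpG-rich, with each difference lower in the members. SP/KLF lost its call at 500 bp (0.838), after merging (0.782) and without CpG-rich peaks (0.838). NF-Y passed the threshold, lower in the members, at 500 bp (adjusted p = 0.0489), 2 kb (0.0107), with coding genes (7.22e-04), by the nearest edge (0.0234), beyond 5 kb (0.0157) and in the central 100 bp (0.0468), by Fisher's exact test. ETS did so at 500 bp (0.0489), 2 kb (0.0114), with coding genes (0.00144), beyond 5 kb (0.0157) and in the central 100 bp (0.0233). So did E2F at 2 kb (0.0279), beyond 5 kb (0.0157) and in the central 100 bp (0.0468), YY1 beyond 5 kb (0.0157) and NRF1 with coding genes (0.0345). Among motifs not called at the 1 kb limit, odds ratios crossed 1 for CTCF at 500 bp (0.989), 2 kb (0.881), with coding genes (0.826), merged (0.975) and beyond 5 kb (0.755), and for CREB at 500 bp (0.860), 2 kb (0.907), with coding genes (0.611), beyond 5 kb (0.922), without CpG-rich peaks (0.953) and in the central 100 bp (0.727). They also did so for STAT at 500 bp (0.999), RUNX at 2 kb (0.920) and beyond 5 kb (0.795), EBF with coding genes (0.944), forkhead beyond 5 kb (0.942) and CACGTG without CpG-rich peaks (1.01). The cause of these changes was not tested. Without heights, scores or depth, strong and weak peaks could not be told apart.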

Other observations

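The density of gene-body peaks varied between chromosomes. It was highest on chromosome 19, with 65 peaks or 2.45 ± 0.304 per Mb of eligible gene-body DNA (Poisson error of the count), followed by chromosome 8 with 99 peaks (2.06 ± 0.207) and chromosome 7 with 93 (1.72 ± 0.178). *Gm20388* hosted 36 of the 99 on chromosome 8. Chromosome X had 17 peaks, or 0.360 ± 0.0873 per Mb, the lowest of the chromosomes with a peak. Among autosomes, chromosomes 3, 14 and 12 were lowest, at 0.851 ± 0.133, 0.854 ± 0.137 and 0.855 ± 0.147 per Mb, which do not differ beyond their errors. Copy number of the chromosomes in Ba/F3 cells was not measured here.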
